A study of Mus musculus with 5 samples.

Results

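Lymphocytes in these brain libraries were taken as the nuclei that passed the limits on genes, unique molecular identifiers (UMIs, each marking 1 captured RNA molecule) and mitochondrial UMIs, held at least 4 summed UMIs of 10 T and NK cell genes, and held at most 3 summed UMIs of 4 microglial genes. The T and NK genes were Skap1, Themis, Cd3g, Cd3e, Cd3d, Trbc1, Trbc2, Nkg7, Klrd1 and Ms4a4b, and the microglial genes were P2ry12, Siglech, Gpr34 and Sall1. Members were thus chosen by the summed UMIs of these 14 genes, whose levels are therefore no result here. The rule found 199 lymphocytes among 9505 kept nuclei, of 9748 deposited. Single-nucleus RNA sequencing had been done on nuclei sorted as negative for the neuronal protein NeuN and the oligodendrocyte-lineage protein Olig2, a sort meant to enrich microglia and not lymphocytes. The 5 libraries each came from 1 mouse, 2 of them Tmem119-creERT2-cGas wt/R241E (R241E) and 3 of them Tmem119-creERT2-cGas wt/wt (WT). All carried the Tmem119-creERT2 driver, which by the study's description acts mainly in microglia and brain macrophages, and tamoxifen was given to young adult mice to switch the allele on. The titles were followed for the controls, although the study's results name control mice that carry the allele. The labels give hippocampus and microglia for every sample, while the methods name brain tissue without a region. A text on H151 and DMSO in aged mice accompanies all samples without assigning either to any of them.

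T cells recognise peptides on major histocompatibility complex (MHC) molecules through a receptor built on the CD3 chains, and CD8 T cells read MHC class I and kill target cells with granzymes and perforin. NK cells kill without a rearranged receptor and carry receptors such as Ncr1 and the Klr family. Few lymphocytes are found in the healthy brain, most of them near its borders and vessels, and those that stay often carry residency genes such as Itgae and Cxcr6. cGAS senses DNA and acts by way of STING on type I interferons. The R241E change weakens the hold of nucleosomes on the enzyme.

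Lymphocytes were counted in every library, and most came from the R241E mice. There were 126 and 35 in R241E replicates 1 and 2, and 4, 9 and 25 in WT replicates 1, 2 and 3. Summed over lymphocytes, R241E replicates 1 and 2 gave 321570 and 93869 UMIs, and WT replicates 1 to 3 gave 11571, 15327 and 57964. The WT profile therefore rested on 38 nuclei and in large part on WT replicate 3. In the same order the median lymphocyte held 2244.5, 2703, 2482.5, 1364 and 2010 UMIs. No lymphocyte had a barcode that another library shared, and 13 barcodes among all nuclei did. Nuclei are not replicates, so genotypes were compared over libraries, and intervals given for single libraries cover counting error only.

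The label was checked against the markers and against genes outside the rule. Of the 199 nuclei, 101 held UMIs of more than 6 of the 10 rule genes, and the median nucleus held 19 rule UMIs. The 4 microglial genes together gave 32 UMIs in all lymphocytes. The 20 genes outside the rule with the largest ratio of their level in lymphocytes to that in all other nuclei were lymphocyte genes wherever their function is known. They included Cd6, a T cell surface receptor, with 71 UMIs in lymphocytes and 0 elsewhere, Fasl, a death ligand, with 81 against 3, the small GTPases Gimap3, with 319 against 15, and Gimap4, with 186 against 9, and Il2rb, an interleukin-2 receptor chain, with 143 against 11. These values describe the set, since the nuclei had been chosen for genes that such cells share. Of the 8 nuclei just inside the limit, with exactly 4 rule UMIs, none had 2 different rule genes, and 16 nuclei just outside had 3 rule UMIs, of which 6 had 2 or more rule genes.

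Some of the 199 nuclei carried RNA of other cell types. In 13 nuclei all rule UMIs came from 1 gene. In 7 of these the gene was Themis, and all 7 held at least 4 UMIs of the astrocyte list and at least 4 of the fibroblast list. By library, 8 of the 13 were in R241E replicate 1, 1 in R241E replicate 2, 1 in WT replicate 1 and 3 in WT replicate 2. In all, 31 lymphocytes held at least 4 UMIs of another class list, the list of monocytes, neutrophils and dendritic cells left aside. Astrocyte list RNA stood at 215 and 32.0 CPM (UMIs of the genes scaled to a fixed total) in R241E lymphocytes, against 1296, 457 and 276 CPM in WT lymphocytes, and Gfap was at 0. Fibroblast list RNA stood at 274 and 10.7 CPM in R241E, against 1296, 326 and 17.3 CPM in WT, with no gene of the list at 0. The MHC class II list stood the other way, at 249 and 3185 CPM in R241E lymphocytes, against 0, 326 and 0 CPM in WT lymphocytes, with 6 lymphocytes at 4 or more UMIs and R241E replicate 2 far above the other libraries. The monocyte, neutrophil and dendritic cell list reached 4 UMIs in 54 lymphocytes. T cells can also express Ly6c2, Ccr2 and Itgax of this list, while S100a8, Ly6g and Retnlg were at 0. S100a9 and Flt3, the remaining genes of the list, were not at 0. A nucleus of R241E replicate 2 held 27 UMIs of the list, and Ms4a4b was its only rule gene. Results are given with and without the 31 nuclei where they changed.

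Lymphocytes made up a larger share of nuclei in both R241E libraries than in any WT library. They were 5.24% (exact Clopper-Pearson 95% interval 4.39 to 6.21) of kept nuclei in R241E replicate 1 and 2.58% (1.80 to 3.57) in R241E replicate 2. The WT shares were 0.261% (0.0711 to 0.666), 0.458% (0.210 to 0.868) and 1.11% (0.722 to 1.64). The groups did not overlap. On average lymphocytes made up 3.91% ± 1.88 (SD, n = 2) of R241E nuclei against 0.611% ± 0.446 (SD, n = 3) of WT nuclei, a difference of 3.30 percentage points (exact permutation test, two-sided, p = 0.1). That p is the smallest that 2 against 3 libraries can give, so the design cannot reach the usual threshold of 0.05. The difference was 1.97 percentage points without R241E replicate 1 and 4.63 without R241E replicate 2.

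A lower share of microglia raises the share of every other nucleus, so lymphocytes were also counted among nuclei that were not microglia. They were then 8.81% and 3.95% in R241E replicates 1 and 2, against 0.616%, 1.53% and 2.68% in WT replicates 1 to 3. The groups again did not overlap, but the interval of R241E replicate 2 (2.76 to 5.45) overlapped that of WT replicate 3 (1.74 to 3.93). The difference of means was 4.77 percentage points (exact permutation p = 0.1), and it was 2.34 without R241E replicate 1 and 7.20 without R241E replicate 2. After each nucleus had been thinned to 1000 UMIs, which left out 13 and 2 lymphocytes of the R241E libraries and 2 of WT replicate 2, the difference in kept nuclei was 3.03 percentage points. Without the nuclei that carried other markers it was 2.86.

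**Figure D1:**
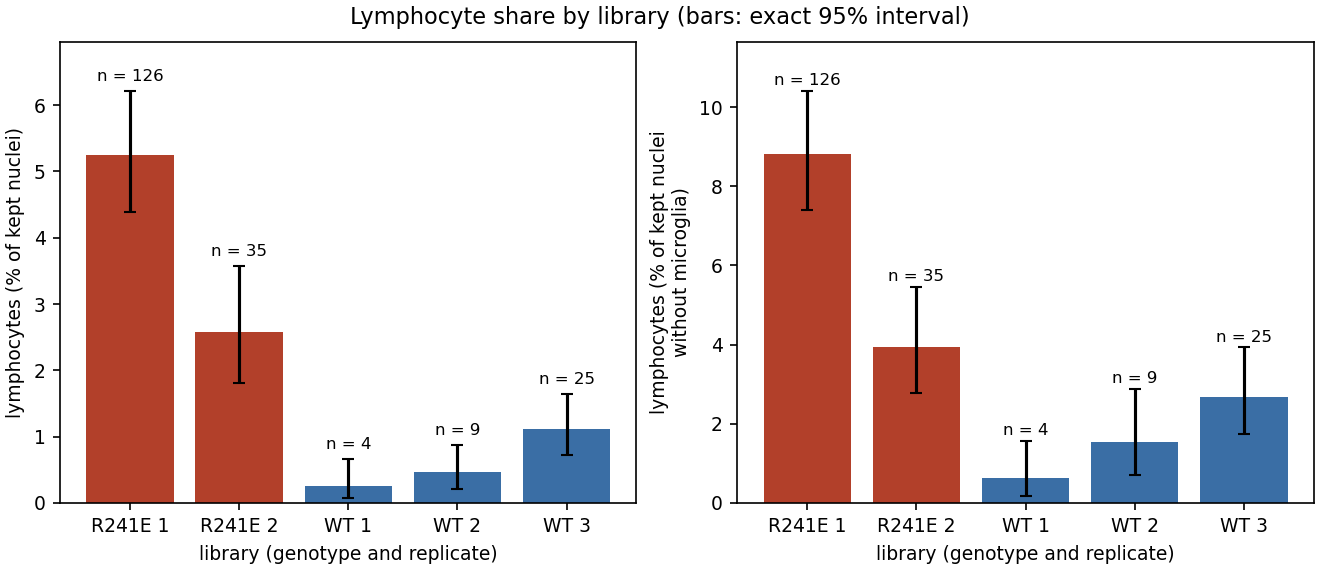
Lymphocytes as a share of kept nuclei (left) and of kept nuclei without microglia (right), in percent, for each of the 5 libraries, with n the number of lymphocytes and bars the exact 95% binomial interval. On the left the R241E libraries stand at 5.24% and 2.58% and the WT libraries between 0.261% and 1.11%.

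Shares of other nuclei also differed. Each kept nucleus outside the lymphocytes was given the class whose marker list had the most UMIs in it, at least 4 and with no tie, which is a separate sorting from the microglial rule used elsewhere. Microglia-marked nuclei made up 34.3% ± 3.92 (SD, n = 2) for R241E against 59.5% ± 7.31 (SD, n = 3) for WT. Fibroblast-marked nuclei stood at 7.66% ± 2.19 against 2.15% ± 0.803, mural-marked nuclei at 9.98% ± 3.29 against 3.77% ± 1.33, and endothelial-marked nuclei at 0.985% ± 0.275 against 0.433% ± 0.161. Astrocyte-marked nuclei stood at 10.5% ± 0.815 against 5.69% ± 1.68 and oligodendrocyte-lineage-marked nuclei at 10.4% ± 3.05 against 5.59% ± 1.67. Nuclei marked by MHC class II genes stood at 1.09% ± 0.128 against 0.693% ± 0.163, and pituitary-marked nuclei at 0.682% ± 0.860 against 0.0217% ± 0.0376, with 31 of the nuclei in R241E replicate 1 and 1 in R241E replicate 2. These 8 classes did not overlap between genotypes (exact permutation p = 0.1 each). For the pituitary class this rests on 1 nucleus in R241E replicate 2 (0.0737%) against 1 in WT replicate 1 (0.0652%), which is no separation. The neuron class, the ependymal and choroid class, the monocyte, neutrophil and dendritic cell class and the nuclei of no class overlapped. Border-associated macrophages overlapped, at 4.19% ± 0.720 against 3.53% ± 0.247 (exact permutation p = 0.2). B-cell-marked nuclei also overlapped, at 0.892% ± 0.614 against 0.428% ± 0.204 (exact permutation p = 0.4), and so did erythroid-marked nuclei, at 0.0785% ± 0.00674 against 0.314% ± 0.500. The part of these classes in the lymphocyte share was not tested.

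Pooled over the 5 libraries, CD8 T cells were the most frequent type that could be read from genes outside the rule. Most of them were in R241E replicate 1. In WT lymphocytes an NK receptor gene was more frequent, in 13 of 38 (34.2%) against 9 with CD8 (23.7%). At least 1 UMI of Cd8a or Cd8b1, the chains of the CD8 coreceptor, was found in 83 of 199 lymphocytes (41.7%, exact interval 34.8 to 48.9), against 0.159% of 5016 microglia and 0.917% of 545 neurons, whose median nuclei held 2725 and 4424 UMIs. By library, 64 of 126 and 10 of 35 R241E lymphocytes carried CD8, as did 2 of 4, 0 of 9 and 7 of 25 WT lymphocytes. The share in R241E replicate 1 was thus 50.8% (41.7 to 59.8), while R241E replicate 2 at 28.6% (14.6 to 46.3) and WT replicate 3 at 28.0% differed by less than counting error. Pooled, the share was 46.0% in R241E and 23.7% in WT, a difference of 22.3 percentage points that fell to 4.89 without R241E replicate 1. At 1000 UMIs per nucleus the pooled shares were 37.0% and 18.9%. Only 1 WT library had 10 or more lymphocytes, so no test was made.

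Other subsets were smaller. Cd4, the coreceptor of helper T cells, was found in 6 lymphocytes (3.02%), none of which carried CD8, against 0.199% of microglia. Foxp3, the regulatory T cell factor, was found in 2 lymphocytes (1.01%, exact interval 0.122 to 3.58), which is not distinguishable from the 0.558% of microglia with a UMI. Ncr1, an activating NK receptor, was found in 14 and 5 R241E lymphocytes and in 0, 2 and 7 WT lymphocytes, and in 0.0199% of microglia. Of these 28 nuclei, 24 held no UMI of Cd3e or Trac. With Cd3d, Cd3g, Trbc1 and Trbc2 also counted, only 2 R241E and 0 WT nuclei with Ncr1 held no such UMI. Of 51 lymphocytes with an NK receptor gene of any kind, 5 held none. All of these genes but Trac are rule genes. An NK receptor gene of any kind was found in 23.6% of R241E and 34.2% of WT lymphocytes, and at 1000 UMIs per nucleus in 23.2% and 31.5%. Trdc, the constant segment of the γδ receptor, was found in 7 R241E and 5 WT lymphocytes and in no microglial nucleus of 5016. In 62 lymphocytes (31.2%) no UMI of CD8, Cd4, an NK receptor or Trdc was found.

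Receptor segments were read in few nuclei, because 3′ libraries capture little of the variable region. Trgv2, a γ chain variable segment, was found in 37 lymphocytes, 22 of which carried CD8. Trav8d-2, an α chain variable segment with near-identical copies in the mouse locus, was found in 13 nuclei, all of them in R241E replicate 1 and none in the other 4 libraries. Of these 13, 11 carried CD8, all 13 carried Trbc1, 10 carried Gzmb and 5 carried Top2a. Among the 53 other CD8 nuclei of the same library, 39 carried Trbc1, 30 carried Gzmb and 7 carried Top2a. Because reads of such copies can be assigned to the wrong one, the name of this segment is uncertain. Every other α chain variable segment was found in at most 3 nuclei. These are counts of nuclei within 1 mouse, with no replicate check.

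Pooled over the 2 R241E libraries, cytotoxic and residency genes were found together with CD8, and R241E replicate 1 held 64 of the 74 CD8 nuclei. Of 74 CD8 nuclei and 83 others, leaving out 4 with an NK receptor gene and no CD3 or T cell receptor constant UMI, Gzmb (granzyme B) was found in 60.8% and 21.7%, Gzmk (granzyme K) in 55.4% and 4.82%, and Itgae (the CD103 integrin chain) in 36.5% and 14.5%. Cxcr6, the receptor of the chemokine Cxcl16, was found in 79.7% and 54.2%. The median nuclei of these sets held 2469.5 and 2054 UMIs. Most of the Itgae nuclei were in R241E replicate 1, with 35 there, 4 in R241E replicate 2 and 0, 0 and 1 in the WT libraries. Itgae was also found in 351 of 5016 microglia. Both Itgae and CD8 were found in 26 nuclei of R241E replicate 1 but in only 1 of the 10 CD8 nuclei of R241E replicate 2. The link of Itgae with CD8 was therefore read in 1 mouse. Both Gzmb and CD8 were found in 39 and 6 nuclei of R241E replicates 1 and 2. Gzma (granzyme A) stood apart by library, with 37 nuclei in R241E replicate 1, 1 in R241E replicate 2 and 5 in WT replicate 3. Ifng, the interferon gamma gene, was found in 9 nuclei, all in R241E replicate 1.

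Proliferation genes were read from the 2 most specific ones, since 26.8% of neurons also reached 2 UMIs of the wider cell cycle list. Mki67 was found in 13 and 3 R241E lymphocytes and in no WT lymphocyte, a share of 9.94% of R241E lymphocytes against 0.199% of microglia and 3.49% of neurons. Top2a, a DNA topoisomerase, was found in 17 and 3 R241E lymphocytes and in 1 WT lymphocyte, against 0.419% of microglia and 0.550% of neurons. With 38 WT lymphocytes, a count of 0 allows a share of up to 7.89%, so for Mki67 a difference between genotypes was not resolved at this depth.

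**Figure D2:**
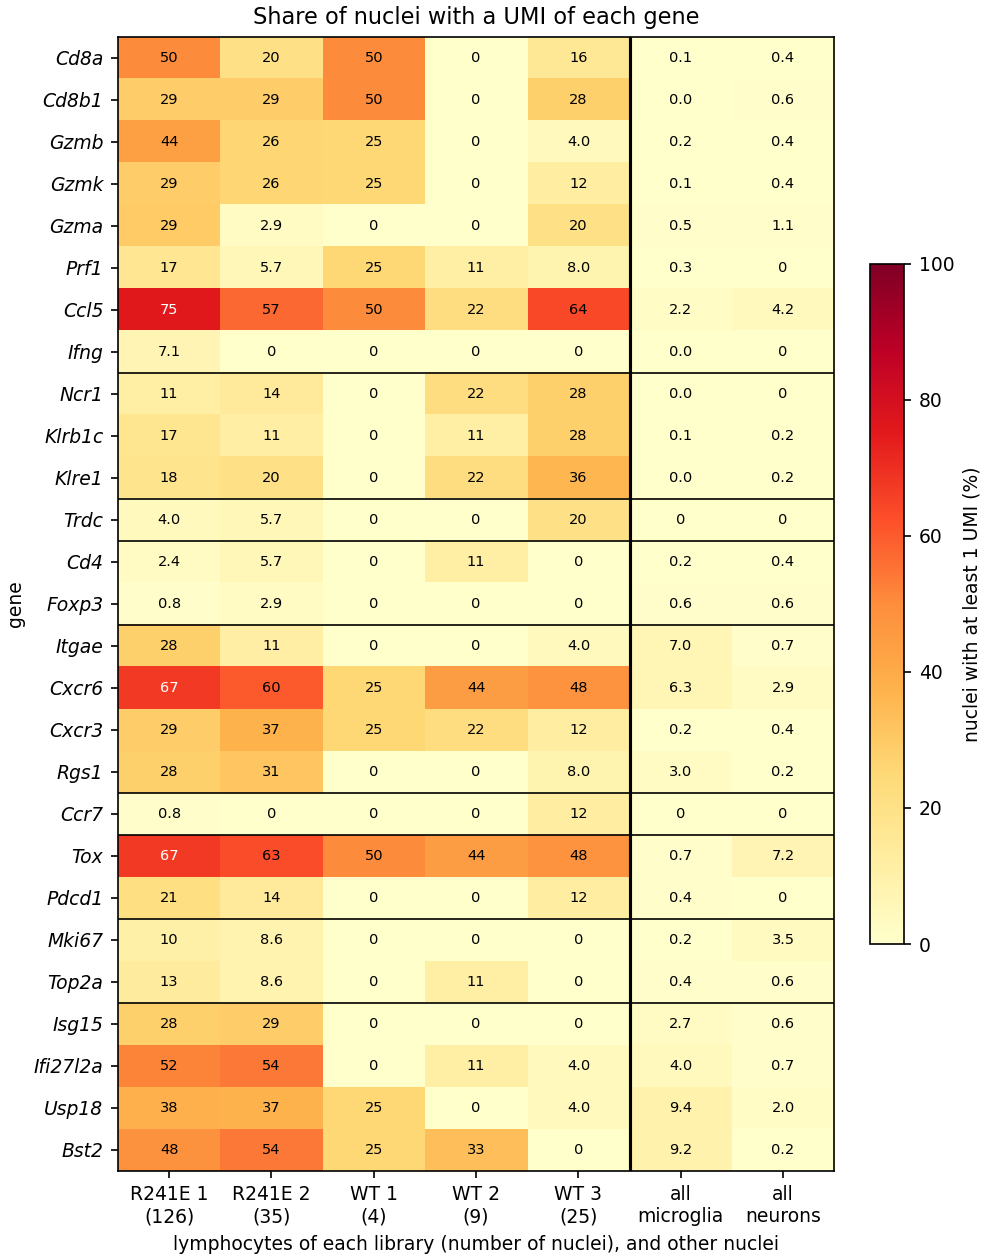
Share of nuclei with at least 1 UMI (percent, printed in each cell) for CD8 and cytotoxic, NK, γδ, CD4, residency and homing, naive, checkpoint, cell cycle and interferon genes, in the lymphocytes of each library (number of nuclei in brackets) and in all microglia and neurons. Isg15 was found in 28% and 29% of R241E lymphocytes and in 0% of the lymphocytes of each WT library, and CD8 genes reach 50% in R241E replicate 1 and in the 4 nuclei of WT replicate 1 but not in the other libraries.

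The genotypes were then compared gene by gene in UMI counts summed over the lymphocytes of each library. Of 1594 genes tested, 4 rose in R241E lymphocytes (0.251% of genes tested) and 3 fell (0.188%), together 0.439%, at an adjusted p under 0.05 in edgeR's quasi-likelihood test. Before adjustment, 103 genes (6.46%) had a p under 0.05. The 4 genes that rose were Ifi27l2a and Isg15, both induced by interferon, Gzmb and Gm20559, a predicted gene. The count of genes that rose was 2 without R241E replicate 2 or without WT replicate 3, 0 with limma-voom, 1 with DESeq2 and 16 when a nucleus had to hold 2 different rule genes.

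Ifi27l2a, a small mitochondrial interferon-induced gene, stood at 955 and 767 CPM in the R241E lymphocytes and at 0, 65.2 and 17.3 CPM in the WT lymphocytes. The R241E libraries lay far above every WT library, and the gene was found in 65 and 19 R241E lymphocytes against 0, 1 and 1 WT lymphocytes. The log2 fold change was 5.16 ± 0.70 (SE, adjusted p = 0.000241). With 2 UMIs in all WT lymphocytes, the pooled ratio was 38.7 with a counting interval of 10.6 to 321. It was called in 15 of 17 alternative fits and missed the threshold with limma-voom (adjusted p = 0.12) and with at least 3 rule UMIs (0.22).

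Isg15, a ubiquitin-like protein joined to other proteins after interferon, had 96 and 30 UMIs in R241E lymphocytes and 0 in those of each WT library. It was found in 35 and 10 R241E lymphocytes, at 299 and 320 CPM, and the level in R241E was at least 8.58-fold higher, taking 3 UMIs over all WT lymphocytes as the floor. The adjusted p was 0.00322, and it was 0.99 without R241E replicate 1, 1.0 without R241E replicate 2 and 0.094 without WT replicate 3. Microglia of the same R241E libraries held 33.9 and 41.0 CPM of Isg15 and neurons 0 and 2.29 CPM. The lymphocyte level was thus above that of these 2 kinds of nuclei, and other kinds were not compared. At 1000 UMIs per nucleus, 16.0% of R241E lymphocytes held a UMI.

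Gzmb stood at 1004 and 298 CPM in R241E lymphocytes and at 173, 0 and 17.3 CPM in WT lymphocytes. It was found in 55 and 9 R241E nuclei and in 1, 0 and 1 WT nuclei, and in 0.159% of microglia. The log2 fold change was 4.20 ± 0.81 (SE, adjusted p = 0.0113), and the pooled ratio was 23.9 (8.11 to 116) on 3 WT UMIs. Without R241E replicate 1 the log2 fold change was 2.72 and the gene was no longer called. Nor was it called without WT replicate 3, at 3.23 (adjusted p = 0.29). Gm20559, on chromosome 6 at 3330738 to 3346141 (GRCm38.p6), stood at 289 and 330 CPM against 86.4, 65.2 and 17.3 CPM, with a log2 fold change of 3.09 ± 0.68 (SE, adjusted p = 0.0394). The call was lost in each fit that left out a library, apart from that without WT replicate 2, and without the nuclei that carried other markers.

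The 3 genes that fell were Nrg1, a growth factor of neurons, Wdr17 and Snhg11, and their WT counts came from very few nuclei. In WT replicate 3 all 66 Nrg1 UMIs were in 1 nucleus, which also held 20 Snhg11 UMIs, all those of that library, 20 UMIs of the neuron list and 58 UMIs of Lsamp beside 45 UMIs of 8 rule genes. For Wdr17, 31 of the 33 UMIs of WT replicate 3 were in 1 nucleus. Without the lymphocytes that carried other markers none of the 3 genes passed the filter on low counts, and 0 genes fell while 4 rose (edgeR). These lower calls therefore describe single nuclei.

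Interferon-induced genes as a group were higher in R241E lymphocytes. Of 72 genes on the interferon list, 70 were in the files, 69 had a UMI in lymphocytes and 27 had enough counts to be tested. Of the 27, all had a log2 fold change above 0, against 52.5% of all genes tested, and 2 passed the test. The median log2 fold change was 1.23, against 0.05 over all genes tested. In 17 of the 27 both R241E libraries lay above all WT libraries, against 10.2% of all genes tested, and in none did both lie below, against 9.22% of all genes tested. Genes were tested only if counted well in at least 1 group of libraries, and the list was chosen with earlier results of these data known, so these counts are a description.

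Next to the 2 genes that passed, several list members stood apart without passing. Usp18, which removes Isg15 from proteins, stood at 299 and 192 CPM in R241E against 86.4, 0 and 17.3 CPM in WT (log2 fold change 3.40 ± 0.81, SE, adjusted p = 0.0716). Bst2, a tether of budding virus particles, stood at 361 and 384 CPM against 86.4, 196 and 0 CPM (2.89 ± 0.75, adjusted p = 0.0916). Ly6a, a surface protein of activated T cells, stood at 905 and 629 CPM against 0, 326 and 173 CPM (2.19 ± 0.53, adjusted p = 0.0793). In these 3 genes and in Rnf213, Ly6c2, Ifi206 and Mndal the groups did not overlap. Usp18, Bst2 and Ly6a were called when each lymphocyte had to hold 2 different rule genes. At the other end Epsti1 stood at 824 and 554 CPM against 605, 913 and 621 CPM, with overlap (0.07 ± 0.42, adjusted p = 0.984).

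The summed level of the interferon list was 15832 and 13593 CPM in R241E lymphocytes and 4494, 7960 and 5210 CPM in WT lymphocytes. Both R241E libraries lay above all WT libraries, and the means of 14713 ± 1583 (SD, n = 2) and 5888 ± 1830 (SD, n = 3) differed 2.50-fold. No R241E nucleus held more than 10.2% of its library's list UMIs, while in WT replicates 1 and 2 a single nucleus held 38.5% and 31.1%. The level was also read within kinds of lymphocyte, pooled over the libraries of each genotype. R241E replicate 1 held 64 of the 74 R241E CD8 nuclei, and WT replicate 3 held 7 of the 9 WT ones. The CD8 values thus rest largely on 1 mouse per genotype. CD8 nuclei held 20201 CPM in R241E and 6584 CPM in the 9 WT nuclei, and the other lymphocytes, again without those that had an NK receptor gene but no CD3 or T cell receptor constant UMI, held 10369 and 4635 CPM. The nuclei set aside went the other way, at 15873 CPM in 4 R241E nuclei and 26931 CPM in 1 WT nucleus. Ifi27l2a was found in 73.0% of R241E CD8 nuclei and 32.5% of those other R241E lymphocytes.

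To show the sequence at the start of 2 genes that passed the test, Isg15 and Gzmb, and of Bst2, which did not pass, their promoters are printed from 250 bases before to 50 after the start of transcription (RefSeq, GRCm38.p6, coding strand, 5′ to 3′). Capitals mark every match to GAAANNGAAA, the core of the interferon-stimulated response element, on either strand. Isg15 is at chr4:156200769-156201068 (minus strand), Bst2 at chr8:71537423-71537722 (minus strand) and Gzmb at chr14:56262285-56262584 (minus strand).
Isg15: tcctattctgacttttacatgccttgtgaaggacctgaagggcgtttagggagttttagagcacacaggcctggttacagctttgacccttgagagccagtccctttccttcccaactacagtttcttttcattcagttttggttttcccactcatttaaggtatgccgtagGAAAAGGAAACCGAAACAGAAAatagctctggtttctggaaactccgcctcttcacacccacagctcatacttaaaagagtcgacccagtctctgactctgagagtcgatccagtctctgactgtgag
Bst2: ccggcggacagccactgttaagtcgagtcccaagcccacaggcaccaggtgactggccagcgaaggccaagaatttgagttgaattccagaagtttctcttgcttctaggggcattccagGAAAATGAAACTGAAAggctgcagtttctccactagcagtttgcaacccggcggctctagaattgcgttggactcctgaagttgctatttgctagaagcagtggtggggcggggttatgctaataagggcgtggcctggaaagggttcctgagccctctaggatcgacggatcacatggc
Gzmb: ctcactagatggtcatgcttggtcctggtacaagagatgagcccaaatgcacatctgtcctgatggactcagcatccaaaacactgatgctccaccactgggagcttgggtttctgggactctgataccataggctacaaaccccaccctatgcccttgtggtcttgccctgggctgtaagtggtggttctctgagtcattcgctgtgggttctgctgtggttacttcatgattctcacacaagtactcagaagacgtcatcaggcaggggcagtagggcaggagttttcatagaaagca
The Isg15 window held 3 overlapping matches, beginning 78, 72 and 66 bases before the start, and the Bst2 window held 2 overlapping matches, beginning 130 and 124 bases before it. The Gzmb window held none, which says only that these letters are not in this window. Of 32851 promoters of this length, 1131 (3.44%) held a match, and so did 1079 of 27025 genes (3.99%). Promoters were given for 20 of the 27 interferon genes tested, too few for a share over the list, and Ifi27l2a and Usp18 were not among them. A match is a description of the sequence and not a binding site.

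MHC class I genes present peptides to CD8 T cells. Lymphocytes of both genotypes held them at high level, and none of the 14 list genes tested passed the test, with 12 log2 fold changes above 0, against 52.5% of all genes tested, and a median log2 fold change of 0.71. In 10 of the 14 both R241E libraries lay above all WT libraries, against 10.2% of all genes tested. The summed level of the list was 12538 and 12326 CPM for R241E lymphocytes, against 8642, 9591 and 8971 CPM for WT lymphocytes, without overlap and with means 1.37-fold apart. H2-D1, a classical class I heavy chain, stood at 2628 and 2685 CPM in R241E lymphocytes and at 2247, 2153 and 2415 CPM in WT lymphocytes (log2 fold change 0.31 ± 0.38, SE, adjusted p = 0.972). In microglia of the same libraries it stood at 557 and 531 CPM and at 41.5, 65.8 and 70.8 CPM (log2 fold change 3.15). WT lymphocytes thus already held more H2-D1 than R241E microglia. H2-K1, the other classical chain of this list, stood at 2553 and 2653 CPM in R241E lymphocytes and at 1210, 2088 and 1984 CPM in WT lymphocytes, against 479 and 352 CPM and 41.9, 47.0 and 70.8 CPM in microglia. B2m, the shared light chain, stood at 2329 and 2056 CPM against 1296, 1631 and 1294 CPM in lymphocytes, with no overlap between genotypes (0.74 ± 0.39, adjusted p = 0.812).

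**Figure D3:**
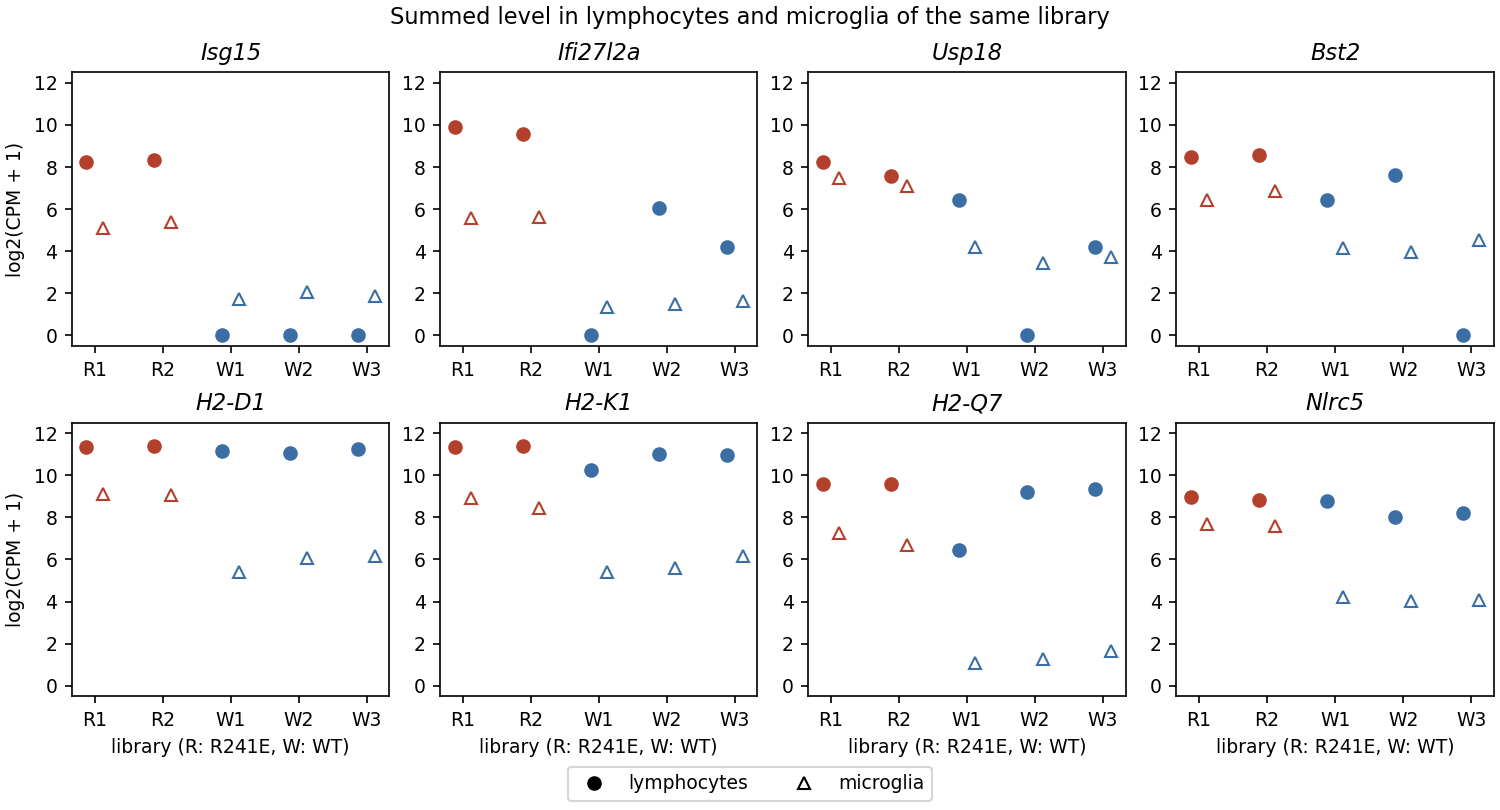
Level of 4 interferon-induced genes (top) and 4 MHC class I genes (bottom) as log2(CPM + 1) of summed counts, for lymphocytes (filled circles) and microglia (open triangles) of each library, with R241E in red and WT in blue. Isg15 of lymphocytes is at 299 and 320 CPM in R241E and at 0 in WT, while H2-D1 of lymphocytes lies between 2153 and 2685 CPM in all 5 libraries.

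The genotype effect was compared directly between lymphocytes and microglia of the same mice by an interaction term, with the library as a block. Here and below, a smaller effect in lymphocytes means a lower signed log2 fold change than in microglia, and a larger effect a higher one. Of 1557 genes tested, 16 had a smaller R241E effect in lymphocytes (1.03%) and 0 a larger one (0.00%) in edgeR's quasi-likelihood test. Before adjustment, 131 had a p under 0.05. A smaller effect in this sense need not be weaker. Among the 16, Nrg1 and Snhg11 stood at -5.60 and -2.89 in lymphocytes and at 0.07 and 0.57 in microglia. The 16 became 1 without R241E replicate 2, 3 without WT replicate 3, 29 without WT replicate 1 and 27 with at least 2 different rule genes, and 5 and 9 genes had a larger effect with at least 6 rule UMIs and with at least 2 different rule genes. Of the 14 MHC class I genes, 5 were among the 16. The difference of log2 fold changes was -5.35 ± 0.54 (SE, adjusted p = 3.39e-05) for H2-Q7 and -5.88 for H2-Q6 (adjusted p = 0.000181), both nonclassical chains with near-identical copies whose counts are uncertain. It was -2.72 for H2-D1 (adjusted p = 0.000342), -2.83 for Nlrc5, the transactivator of class I genes (adjusted p = 0.00457), and -2.14 for H2-K1 (adjusted p = 0.00626). The median difference over the 14 genes was -1.24, against 0.02 over all genes tested. H2-Q7 was called in every fit that left out a library, with an adjusted p of at most 0.032. H2-D1 missed the threshold without R241E replicate 2 (adjusted p = 0.055). H2-K1, H2-Q6 and Nlrc5 lost the call without either R241E library, and H2-K1 and Nlrc5 also without WT replicate 3 (adjusted p = 0.054 and 0.12).

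Of the 27 interferon genes, 2 had a smaller effect in lymphocytes, Sp100 (-2.15, adjusted p = 0.0215), a nuclear body protein, and Ifi209 (-2.88, adjusted p = 0.0421), a relative of the DNA sensor family of Ifi200 genes. In 21 of the 27 the difference was below 0, and the median was -0.62. No list gene was called without R241E replicate 1, R241E replicate 2 or WT replicate 3, and 4 were called without WT replicate 1. For Ifi27l2a (0.76) and Usp18 (-0.14) the effects were close in value, with adjusted p of 0.957 and 0.998. Il2rg, the common chain of cytokine receptors, also differed (-3.50, adjusted p = 0.0215): it stood at 249 and 309 CPM against 259, 457 and 276 CPM in lymphocytes and at 14.9 and 15.9 CPM against 1.15, 1.15 and 1.51 CPM in microglia.

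**Figure D4:**
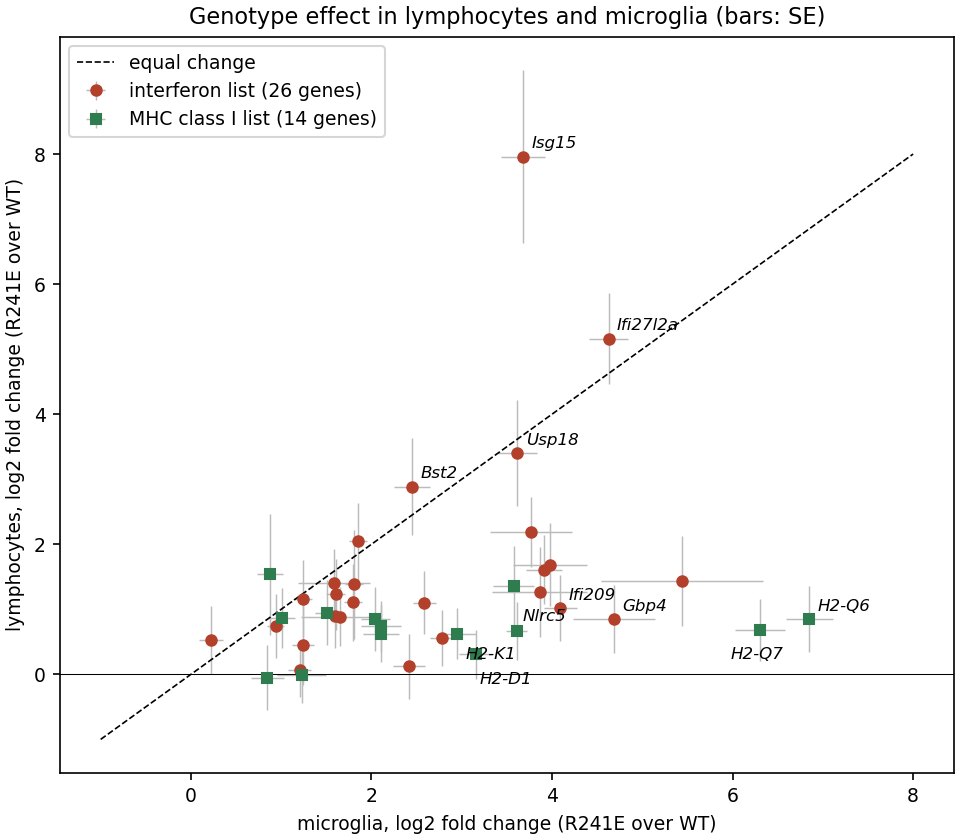
Log2 fold change (R241E over WT) of 26 of the 27 interferon list genes (red circles) and MHC class I genes (green squares) in lymphocytes against that in microglia, with bars of 1 SE and the dashed line of equal change. H2-Q6 and H2-Q7 lie far below the line, at 6.85 and 6.30 in microglia and 0.85 and 0.68 in lymphocytes, and the fitted value of Isg15 in lymphocytes depends on the prior count because no WT lymphocyte held a UMI.

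The other gene lists held 1 call. Over all genes tested, 52.5% had a log2 fold change above 0, the median was 0.05 and 0.251% rose. Of 20 CD8 and cytotoxic genes on the list, only 8 had enough counts to be tested. Of these 8, 6 had log2 fold changes above 0 and Gzmb rose, with a median of 0.89. Gzmb had 3 UMIs in WT lymphocytes and passed the filter on low counts through R241E, so these counts are a description. Ccl5, a chemokine that cytotoxic T cells store, stood at 5451 and 3899 CPM in R241E against 951, 457 and 3761 CPM in WT, where WT replicate 3 came near the R241E libraries (1.36 ± 0.53, SE, adjusted p = 0.444). Of 6 tissue residency genes, 5 had values above 0, none passed and the median was 1.20. Among them Rgs1, a brake on chemokine receptor signalling, stood at 205 and 234 CPM against 0, 0 and 34.5 CPM (3.22 ± 0.86, adjusted p = 0.0992). Cxcr6 stood at 868 and 682 CPM against 173, 326 and 431 CPM (1.22 ± 0.45, adjusted p = 0.371), and Runx3, a factor of CD8 and resident T cells, at 442 and 362 CPM against 86.4, 261 and 190 CPM (1.17 ± 0.49, adjusted p = 0.561). In these 3 genes and in Jaml, 4 of the 6, both R241E libraries lay above all WT libraries, against 10.2% of all genes tested. Only 6 of the 15 residency genes in the files had enough counts to be tested. Rgs1 and Jaml had 2 and 6 UMIs in WT lymphocytes and passed the filter on low counts through R241E. The count of 4 is thus a description.

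No gene of the remaining lists passed the test. Of 22 genes of the T cell receptor complex and its signalling 20 had values above 0, with a median of 0.46. The medians were 0.25 over 4 CD4 helper and regulatory genes, 0.68 over 4 checkpoint genes, 0.30 over 11 trafficking receptors and integrins, and 0.06 over 14 cytokine receptors and signalling genes. They were -0.19 over 12 NK and innate receptors, 9 of which had values below 0, and -0.24 over 5 naive and recirculating genes, 4 of which did. Of the checkpoint genes Tox, a factor of chronically stimulated T cells, stood at 1154 and 1161 CPM against 1124, 587 and 811 CPM, and Pdcd1, which encodes PD-1, was found in 27 and 5 R241E and in 0, 0 and 3 WT lymphocytes. Of the cell cycle list no gene had enough counts for the test, and of the cGAS-STING list only Tbk1 did (log2 fold change 0.07). Cgas itself was found in 12 and 3 R241E lymphocytes and in no WT lymphocyte, against 17.0% of microglia. A count of 0 in 38 WT lymphocytes allows a share of up to 7.89%, so for Cgas a difference between genotypes was not resolved. Tmem173, which encodes STING, was found in 30 R241E and 6 WT lymphocytes. Cgas in microglia had a log2 fold change of 0.15 (adjusted p = 0.578), and the allele need not change the transcript level.

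Ligands that can attract lymphocytes were read in other nuclei, whose positions relative to the lymphocytes are not known. Of 20 listed, 11 were tested in microglia and 7 rose there, against 2.66% of all genes tested. Il15 and Icam1 overlapped between genotypes in microglia. Il15 stood at 139 and 133 CPM in R241E against 148, 139 and 132 CPM in WT. The part of these ligands in the lymphocyte share was not tested. Cxcl16, the ligand of Cxcr6, stood at 46.3 and 65.4 CPM in R241E microglia against 10.8, 12.9 and 23.3 CPM in WT microglia (log2 fold change 1.78, adjusted p = 0.016). Cxcl10, a ligand of Cxcr3, stood at 44.6 and 33.1 CPM against 0, 0.230 and 0.605 CPM (6.86, adjusted p = 0.000101). Both were among the 363 of 13651 genes (2.66%) that rose in microglia. Cxcr3 was found in 36 and 13 R241E lymphocytes and in 1, 2 and 3 WT lymphocytes, at 205 and 234 CPM against 173, 130 and 86.3 CPM, and did not pass the test (adjusted p = 0.812). Cxcl10 itself was also found in lymphocytes of R241E replicate 1, at 180 CPM in 9 nuclei, and in 1 nucleus of R241E replicate 2. Outside microglia and lymphocytes it was also read in WT libraries, with 11 UMIs (172 CPM) in fibroblast-marked nuclei of WT replicate 1 and 8 UMIs (14.9 CPM) in astrocyte-marked nuclei of WT replicate 3, against 10 and 1 UMIs in R241E astrocyte-marked nuclei.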

How the data were processed

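Single-nucleus libraries of sorted brain nuclei were deposited as 1 matrix of raw UMI counts per mouse, which the authors made with Cell Ranger (7.0.0 in the file headers) against mouse mm10. Seurat is named in the submitters' notes. Whether intronic reads or strand entered the counts is not given in the sources used here. Kept nuclei had 200 to 4499 genes, fewer than 10000 UMIs and a mitochondrial share below 5%, and the upper limits were the only treatment of doublets. Library totals ran from 4183709 to 10130667 UMIs. The rule for lymphocytes was applied to raw counts. Microglia were nuclei with at least 4 UMIs of the 4 microglial genes and at most 3 of the rule genes, and other classes took the marker list with the most UMIs (at least 4).

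Counts were summed per library and fitted in edgeR 4.0.16 (R 4.3.3, TMM, filterByExpr, genotype as the only term, Benjamini-Hochberg over all genes tested, threshold 0.05). The difference from microglia was fitted with library, class and class by genotype, over genes with at least 10 microglial UMIs. Alternatives used DESeq2 1.42.0, limma 3.58.1 (voom), no filter, the mouse number as a block, other limits of the rule and each library left out. 2 more were chosen after seeing the data: at least 2 different rule genes, and leaving out nuclei with at least 4 UMIs of another class list (other than microglia and the list of monocytes, neutrophils and dendritic cells). The totals of the difference test under other settings were also added then. Shares were compared by an exact permutation test and given exact 95% intervals. By the titles each sample was a separate mouse.

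The authors tested single nuclei, which was not repeated here. Genes named were those called, those of gene lists (interferon, MHC class I, T cell receptor, CD8 and cytotoxic, CD4, NK, residency, naive, checkpoint, trafficking, cytokine, cGAS-STING and cell cycle) and the 20 with the largest ratio to other nuclei. Some genes that met this rule are not reported here. The members and lists were chosen with earlier results of these data known. Scripts were tested on simulated counts: for lymphocytes, 84% of genes raised 4-fold and 63.9% of those lowered 4-fold were recovered among 1505 genes, with 7 false calls, and for the difference of effects 50% and 42.9% among 1466 genes, with 3 false calls. All 50 genes raised 16-fold were recovered in both. The simulated counts held far more changed genes than the real fits called. They also used the same dispersion for every gene and held no single nuclei with outlying counts. The rates of recovery may thus be too high for the real data.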

Additional observations from a re-analysis of the deposited data

Results flagged for a closer look

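The genotype effect differed between lymphocytes and microglia of the same mice in 10 of the genes named, by a direct test of that difference (edgeR, adjusted p under 0.05), and in each it was lower in lymphocytes. For the MHC class I genes the differences were -5.35 (H2-Q7), -5.88 (H2-Q6), -2.72 (H2-D1), -2.83 (Nlrc5) and -2.14 (H2-K1) on the log2 scale. In lymphocytes these genes had log2 fold changes between 0.31 and 0.85, and in microglia between 2.94 and 6.85. For the interferon list the differences were -2.15 (Sp100) and -2.88 (Ifi209), and for the receptor chain Il2rg -3.50. For Snhg11 (-3.32, adjusted p = 0.0421) and Nrg1 (-5.15, adjusted p = 0.0497) the WT lymphocyte counts stood largely in single nuclei, and neither gene passed the filter without the nuclei that carried other markers. Groups of 2 and 3 libraries were too small to look for single libraries that stand apart.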

How the results depend on the processing

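The 2 differences in lymphocyte share kept their sign under all alternatives, at 1.97 to 4.63 percentage points of kept nuclei and 2.34 to 7.20 of nuclei without microglia when 1 library was left out. The difference in CD8 share ran from 4.89 to 30.6 percentage points, the lowest without R241E replicate 1.

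Counts of genes called depended on the fit, and the causes were not tested. Genes that rose numbered 4, and 1 with DESeq2, 0 with limma-voom (200 at an unadjusted p under 0.05) and with at least 3 rule UMIs (64), 16 with no filter and with at least 2 different rule genes, 28 with the 3 libraries of 10 or more lymphocytes, 17 with at least 6 rule UMIs, 7 with at most 1 microglial UMI and with the upper limits lifted, and 2 to 6 with 1 library left out. Genes that fell numbered 3, and 0 with limma-voom, with at least 3 rule UMIs, with the upper limits lifted and without nuclei carrying other markers, 41 with no filter, 17 with the mouse number as a block, 44 with the libraries of 10 or more lymphocytes, and 1 to 11 with 1 library left out. Interferon genes called numbered 2, and 1 with DESeq2, 0 with limma-voom and with at least 3 rule UMIs, 7 with no filter, with at least 6 rule UMIs, with at least 2 different rule genes and with the libraries of 10 or more lymphocytes, 5 with at most 1 microglial UMI and 1 to 4 with 1 library left out. Their median log2 fold change of 1.23 became 2.02 with no filter (where the median of all genes was 0.60, against 0.05), 2.08 with the libraries of 10 or more lymphocytes and 1.13 to 1.38 with 1 library left out. Interferon genes with a smaller effect in lymphocytes than in microglia numbered 2, and 4 with at least 6 rule UMIs and with at least 2 different rule genes, 1 without nuclei carrying other markers and 0 to 4 with 1 library left out, and the median difference of -0.62 ran from -1.02 to -0.44. Over all genes, those with a smaller effect in lymphocytes numbered 16, and 27 with at least 2 different rule genes and 1 to 29 with 1 library left out; those with a larger effect numbered 0, and 5 with at least 6 rule UMIs, 9 with at least 2 different rule genes, 1 without nuclei carrying other markers and 0 to 3 with 1 library left out. Nrg1 turned to 0.72 with the upper limits lifted. Of 512 single-gene comparisons with alternatives over 36 genes and differences, 421 stayed on their side of the threshold with the same sign, 60 lost a call and 30 gained one.

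The titles number the mice without saying that same-numbered mice are paired. Over genes, same-numbered lymphocyte profiles correlated at 0.13 and 0.09 in their deviations and microglia at -0.23 and -0.22. Deviations were taken from each group's own mean, so with 2 R241E libraries the 2 correlations are not independent. They cannot decide whether mice were paired. With the number as a block 5 genes rose and 17 fell, 2 interferon genes were called at a median of 1.14, and Ifi27l2a kept its call (adjusted p = 0.00931). The 38 WT lymphocytes held 84862 UMIs in all.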
